A study of Schmidtea mediterranea with 8 samples.

Results

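Transcript levels were followed for 4 transcripts of dividing planarian stem cells, out of 17882 transcripts measured. They were smedwi-1 (SMED30007406, Piwi-like protein 1), PCNA (SMED30004304), MCM7 (SMED30030946) and a histone H2A that resembles chicken H2A.J (SMED30002436). These names come from the best protein hits in the study's tables. The 4 were picked by identifier because their levels differed strongly between the 2 sorted cell fractions, so that difference is given below as a description and carries no test. Cells were sorted from adult asexual Schmidtea mediterranea of the CIW4 clonal line, a freshwater flatworm, after staining with the DNA dye Hoechst. The labels give neither fraction a treatment or a genotype of its own. X1 is the irradiation-sensitive fraction of dividing neoblasts (4 libraries), and Xins is the irradiation-insensitive fraction, mostly of post-mitotic cells (4 libraries). Each fraction is a gate on DNA content and dye signal and holds several cell types, so that fewer cells of a type and less RNA per cell cannot be told apart. The labels number the libraries of a fraction but do not say whether they came from separate sorts or worms, so p-values measure only the spread between these libraries.

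Neoblasts are the only dividing somatic cells of a planarian and replace its tissues. Smedwi-1 encodes a Piwi protein, an Argonaute relative that binds the small piRNAs, and its transcript is the standard mark of neoblasts. PCNA is the ring that holds DNA polymerase on its template, MCM7 is a subunit of the MCM2 to MCM7 helicase that unwinds DNA at replication forks, and H2A is a core histone that wraps DNA in nucleosomes. Transcripts for replication proteins and for many histones are known to be most abundant in cells that pass through S phase.

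The values are RPKM, reads divided by transcript length and by library size, already scaled between libraries. They held 14323705 to 15523242 reads per library, recovered from the steps between values. The gates were checked against transcripts with known in situ patterns. Of 21 transcripts with a neoblast pattern, 19 were higher in X1 by limma at an adjusted p under 0.05 and 1 was higher in Xins. Their summed level was 6016 to 6686 RPKM in X1 and 738 to 1103 RPKM in Xins. Of 57 transcripts with the mesenchymal pattern of AGAT-1, a mark of late epidermal progeny, 56 were higher in Xins and 1 was higher in X1. Their summed level was 491 to 787 RPKM in X1 against 11465 to 17541 RPKM in Xins, and AGAT-1 itself averaged 4.04 RPKM in X1 against 791 RPKM in Xins. Gut-pattern transcripts (37 in the table) summed to 231 to 331 RPKM in X1 against 663 to 876 RPKM in Xins. Of the 30 of them tested, 26 were higher in Xins, 3 were higher in X1 and 1 did not pass. The labels therefore matched most transcripts of each marker list. Across all 15563 transcripts tested, 35.5% were higher in X1, 41.7% were higher in Xins, and the median log2 difference was -0.11.

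Smedwi-1, the Piwi transcript, was the most abundant of the 4 in all 8 libraries. Its length, recovered from the values, was 2730 nucleotides. Smedwi-1 measured 2209, 2260, 2022 and 1925 RPKM in X1 replicates 1 to 4, against 38.3, 39.7, 86.9 and 47.7 RPKM in Xins replicates 1 to 4. Mean levels were 2104 ± 157 RPKM in X1 and 53.1 ± 22.9 RPKM in Xins (SD, n = 4 each). The X1 libraries lay close together and the fractions did not overlap, and Xins replicate 3 stood above the other Xins libraries. Smedwi-1 alone took 0.617%, 0.566%, 0.503% and 0.433% of all reads in X1 replicates 1 to 4, and ranked 83rd, 104th, 109th and 122nd of 17882 transcripts. In Xins it ranked 2861st, 2825th, 1560th and 2302nd. It was thus still among the upper 16% of transcripts in each Xins library, with between 1729 and 3769 reads.

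H2A.J, the core histone transcript, was next in X1. It measured 841, 1177, 1009 and 1284 RPKM in X1 replicates 1 to 4, against 13.6, 32.5, 34.2 and 19.9 RPKM in Xins replicates 1 to 4. Means were 1078 ± 194 RPKM in X1 and 25.1 ± 9.93 RPKM in Xins (SD, n = 4 each). The fractions did not overlap, with X1 replicate 1 the lowest of its fraction and Xins replicate 1 the lowest of the other. The transcript ranked between 155th and 172nd in X1, against 3263rd to 6183rd in Xins.

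PCNA, the sliding clamp, followed. It measured 602, 826, 690 and 842 RPKM in X1 replicates 1 to 4, against 13.4, 20.4, 39.3 and 15.8 RPKM in Xins replicates 1 to 4. Means were 740 ± 115 RPKM in X1 and 22.2 ± 11.8 RPKM in Xins (SD, n = 4 each). The fractions were again apart, and Xins replicate 3 was the high one. PCNA ranked 209th to 232nd in X1 and 2933rd to 6286th in Xins.

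MCM7, the helicase subunit, was the lowest of the 4 in every library. It measured 126, 142, 183 and 144 RPKM in X1 replicates 1 to 4, against 1.41, 2.69, 3.00 and 2.81 RPKM in Xins replicates 1 to 4. Means were 149 ± 24.1 RPKM in X1 and 2.48 ± 0.723 RPKM in Xins (SD, n = 4 each). X1 replicate 3 was the highest library and Xins replicate 1 the lowest. MCM7 ranked 792nd to 1100th in X1. In Xins it ranked 11746th to 14381st, below the library median, and rested on 54, 98, 109 and 106 reads.

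**Figure D1:**
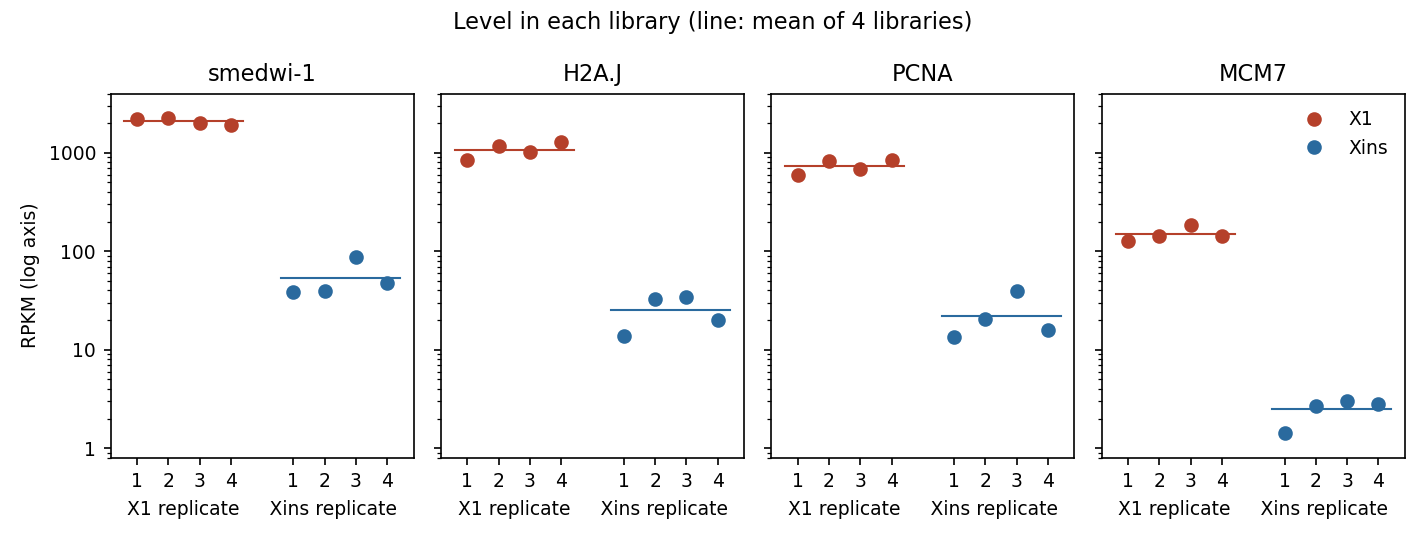
RPKM on a log axis of smedwi-1, H2A.J, PCNA and MCM7 in each library, with X1 replicates 1 to 4 at the left of each panel and Xins replicates 1 to 4 at the right; points are libraries and lines are means of 4 libraries. For each transcript all X1 points lie above all Xins points, and the lowest X1 library exceeds the highest Xins library by 15.3 times (PCNA) to 42.0 times (MCM7).

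The order of levels per length was therefore smedwi-1, H2A.J, PCNA and MCM7 in all 4 X1 libraries. In Xins, smedwi-1 stayed first and MCM7 last in every library. H2A.J and PCNA exchanged places there. They were within a counting error of each other in Xins replicate 1 (13.6 RPKM for H2A.J with 129 reads, 13.4 RPKM for PCNA with 203 reads), PCNA was the higher in Xins replicate 3 and H2A.J in Xins replicates 2 and 4. Their Xins means of 25.1 and 22.2 RPKM differed by less than the SD of either.

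The difference by which the transcripts had been picked was of similar size for all 4. As ratios of mean RPKM, X1 exceeded Xins 39.6-fold for smedwi-1, 33.3-fold for PCNA, 60.0-fold for MCM7 and 43.0-fold for H2A.J. On the log2(RPKM + 1) scale, which understates the change of low transcripts, the differences of X1 minus Xins were 5.36 ± 0.23, 5.10 ± 0.27, 5.44 ± 0.19 and 5.44 ± 0.26 in the same order (± SE). Counted from the largest difference toward X1, these ranked 9th, 18th, 4th and 5th among all transcripts tested. Differences toward Xins could be larger in size: those of the AGAT-1 pattern list had a median of -5.49 and reached -7.98. All X1 libraries lay above all Xins libraries for each of the 4, as they did for 32.5% of all transcripts tested, and nothing is read from this since the choice fixed it.

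What remained in Xins was expressed as a residual share, the RPKM of each Xins library as a percent of the X1 mean. The median residual share over all transcripts tested was 106% to 111% in the 4 Xins libraries. Smedwi-1 kept 1.82%, 1.89%, 4.13% and 2.27% in Xins replicates 1 to 4. PCNA kept 1.81%, 2.76%, 5.32% and 2.13%. These 2 transcripts shared the same high library, replicate 3, which stood above the other Xins libraries for both.

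H2A.J kept 1.27%, 3.02%, 3.17% and 1.85% of its X1 mean in Xins replicates 1 to 4. MCM7 kept 0.95%, 1.81%, 2.02% and 1.89%. For both, replicate 3 was again the highest and replicate 1 the lowest, but replicate 3 did not stand apart from replicate 2. With exact 95% Poisson intervals on the Xins reads, which cover counting error only, the MCM7 share was 0.714% to 1.24% in replicate 1 and 1.66% to 2.44% in replicate 3. Means over the 4 Xins libraries were 2.53% ± 1.09 for smedwi-1, 3.00% ± 1.59 for PCNA, 1.67% ± 0.486 for MCM7 and 2.33% ± 0.921 for H2A.J (SD, n = 4 each). The ranges of the 4 transcripts over the Xins libraries overlapped.

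Within a library the 4 residual shares could lie apart. In Xins replicate 3 PCNA kept 5.32% (95% Poisson interval 4.89% to 5.77%), smedwi-1 4.13% (4.00% to 4.26%), H2A.J 3.17% (2.83% to 3.55%) and MCM7 2.02% (1.66% to 2.44%), and no interval overlapped another. These intervals leave out the spread of the X1 means (CV 7.48% to 18%), and the ratios between the 4, given next, overlapped between the fractions. In Xins replicate 4 the shares ran only from 1.85% to 2.27%. All 4 transcripts were lowest in Xins replicate 1 and highest in Xins replicate 3. Among all transcripts tested, 23.1% were lowest in Xins replicate 1 and 26.9% were highest in Xins replicate 3. Of those higher in X1, 31.1% were lowest in Xins replicate 1 and 43.7% were highest in Xins replicate 3.

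**Figure D2:**
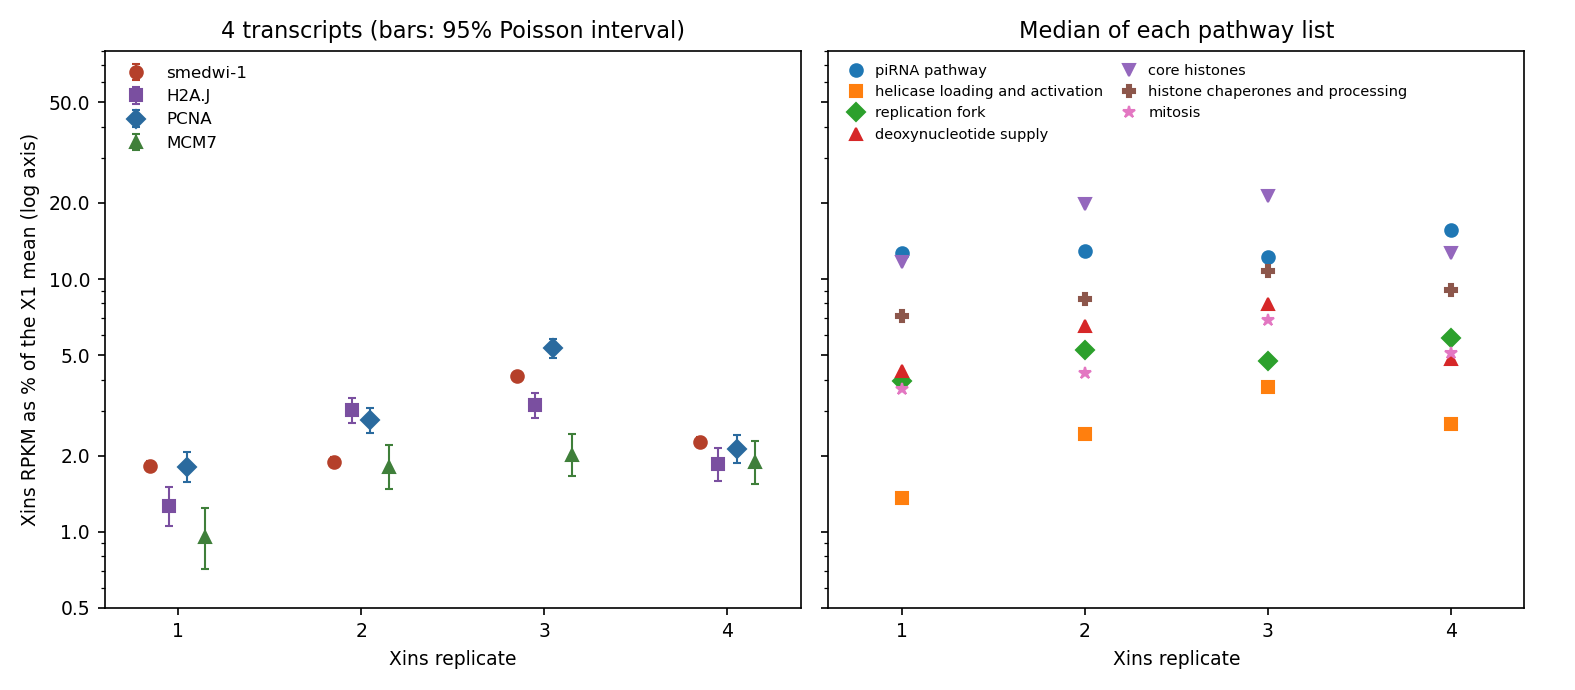
RPKM of each Xins library as a percent of the mean of the 4 X1 libraries, on a log axis, for the 4 transcripts with 95% Poisson intervals of the Xins reads (left) and as the median of each pathway list (right). The 4 transcripts lie between 0.95% (MCM7, replicate 1) and 5.32% (PCNA, replicate 3), and the piRNA list medians lie between 12.2% and 15.6%.

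Ratios between the 4 transcripts inside a library do not depend on library size. The tightest was H2A.J over PCNA in X1, which was 1.40, 1.43, 1.46 and 1.52 in replicates 1, 2, 3 and 4, a coefficient of variation (CV) of 3.77% where counting error alone gives 1.54%. In Xins it was 1.02, 1.59, 0.869 and 1.27, with a CV of 26.7% against 9.24% from counting. The mean ratio was 1.45 ± 0.0548 in X1 and 1.19 ± 0.317 in Xins (SD, n = 4 each), and the Xins libraries spread to both sides of the X1 libraries.

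The other 5 ratios varied more within X1. Their CVs were 19.5% to 23.1% in X1 and 20.5% to 35.7% in Xins. Smedwi-1 over PCNA averaged 2.91 ± 0.577 in X1 and 2.51 ± 0.515 in Xins, and smedwi-1 over H2A.J averaged 2.01 ± 0.465 in X1 and 2.24 ± 0.701 in Xins (SD, n = 4 each). Both differed between fractions by less than 1 SD.

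Ratios to MCM7 were lower in X1 on average. Smedwi-1 over MCM7 was 17.5, 15.9, 11.1 and 13.3 in X1 replicates 1 to 4, against 27.1, 14.8, 28.9 and 16.9 in Xins replicates 1 to 4. PCNA over MCM7 was 4.77, 5.82, 3.78 and 5.84 in X1, against 9.47, 7.58, 13.1 and 5.61 in Xins. H2A.J over MCM7 averaged 7.35 ± 1.54 in X1 and 10.1 ± 2.22 in Xins (SD, n = 4 each). In each of the 6 ratios the X1 and Xins libraries overlapped.

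**Figure D3:**
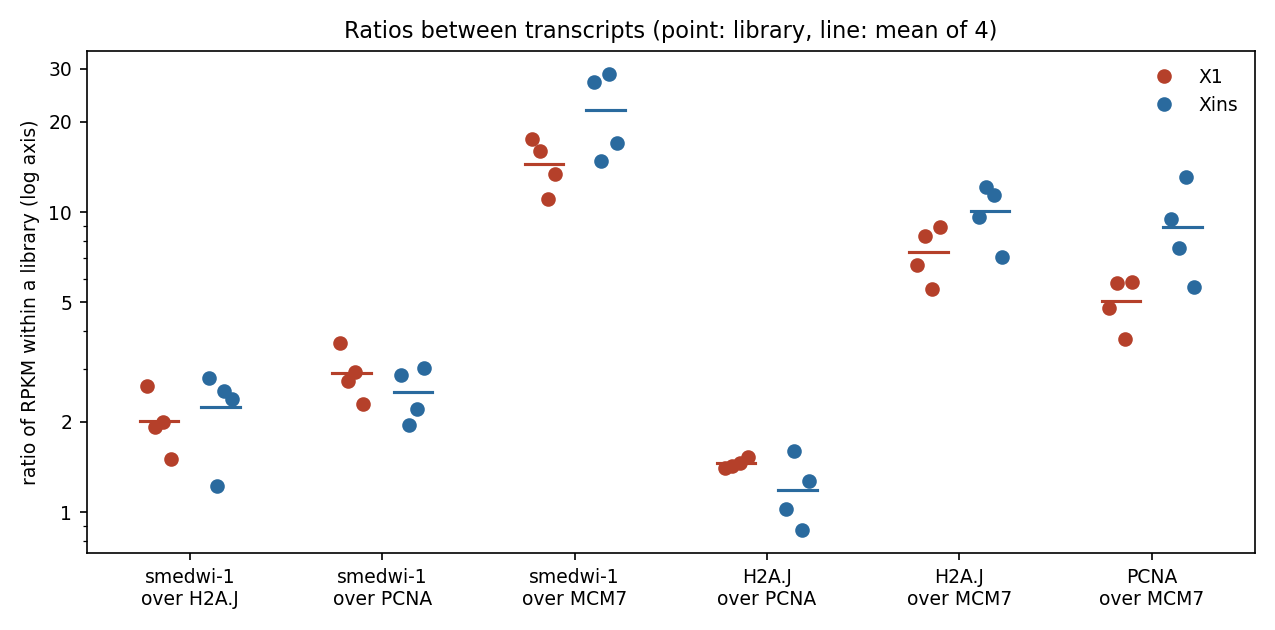
Ratios of RPKM between pairs of the 4 transcripts within each library on a log axis, with X1 at the left and Xins at the right of each pair; points are libraries and lines are means of 4. H2A.J over PCNA is the tightest set in X1 (1.40 to 1.52), and every pair overlaps between the fractions.

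The spread among X1 libraries moved with transcript length, as recovered from the values. Over 1189 transcripts of up to 600 nucleotides with a mean of at least 10 RPKM, the median log2 deviation from the fraction mean was -0.21, -0.03, 0.00 and 0.24 in X1 replicates 1 to 4 and -0.16, 0.27, 0.14 and -0.21 in Xins replicates 1 to 4. Over 1474 transcripts longer than 2000 nucleotides it was 0.02, -0.04, 0.06 and -0.05 in X1 and -0.02, -0.09, -0.03 and 0.16 in Xins. H2A.J (565 nucleotides) and PCNA (907) fall in shorter classes, and smedwi-1 (2730) and MCM7 (2284) in the longest. After each library was centred on its length class, an alternative chosen after the data were seen, the CV in X1 was 9.70% for H2A.J (18% as deposited) and 9.39% for PCNA (15.5%), but 8.36% for smedwi-1 (7.48%) and 14.2% for MCM7 (16.2%). In Xins the CVs after centring were 27.9%, 43.0%, 44.8% and 29.6% for H2A.J, PCNA, smedwi-1 and MCM7.

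Relatives of the 4 and the other genes of their pathways were taken from 7 lists of 80 transcripts. All were named from the study's tables of transcripts that changed in whole worms after RNAi of p53 or chd4, and mostly from those lowered by p53 RNAi, so the lists lean toward neoblast transcripts. By limma with Benjamini-Hochberg adjustment over all transcripts tested, 77 of the 80 (96.2%) were higher in X1 and 1 was higher in Xins, beside 35.5% and 41.7% of all transcripts tested. In 75 (93.8%), all X1 libraries lay above all Xins libraries. The median log2 difference over the 80 was 3.63, against -0.11 over all transcripts tested.

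**Figure D4:**
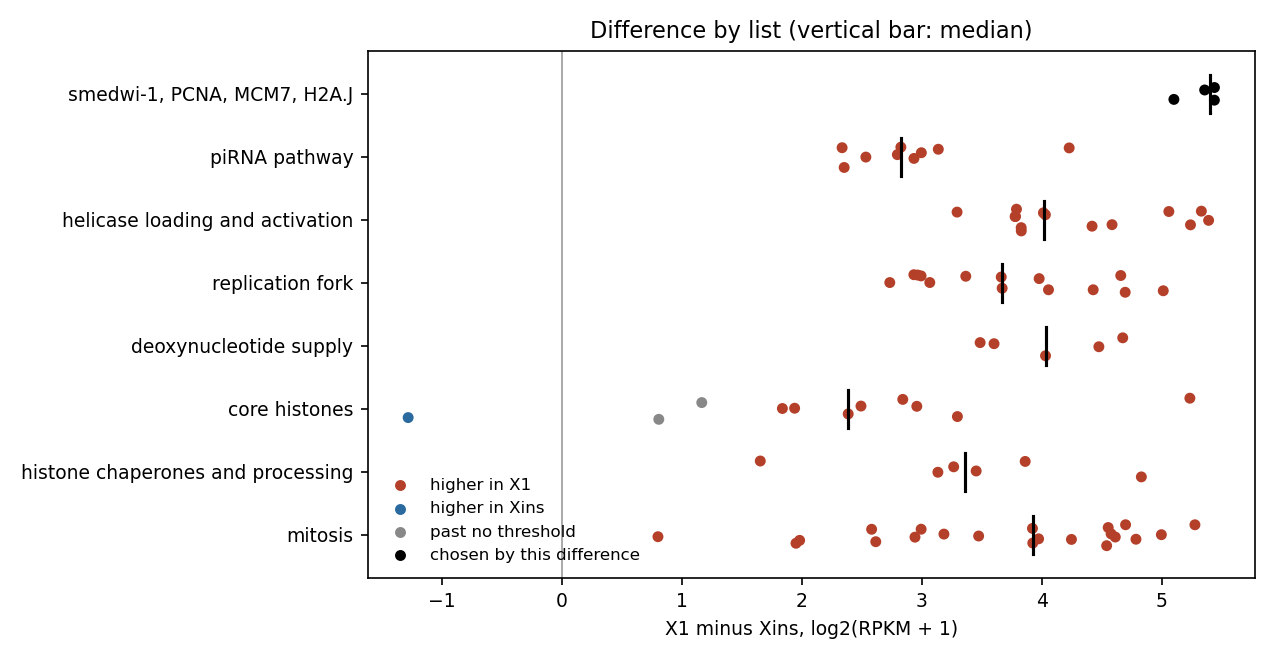
Difference of X1 minus Xins in log2(RPKM + 1) for each transcript of the 7 pathway lists and for the 4 transcripts chosen by this difference (black, no test); vertical bars are medians. Median differences run from 2.39 (core histones) to 4.03 (deoxynucleotide supply), and 3 core histones are not higher in X1.

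All 9 listed transcripts of the piRNA pathway were higher in X1. Their median log2 difference was 2.83 (2.34 to 4.23), and their median residual share was 12.7%, 12.9%, 12.2% and 15.6% in Xins replicates 1 to 4, above that of smedwi-1, which had itself been picked for a large difference. The lowest member of the list by mean residual share was a DDX4-like transcript (5.08%). The highest difference was that of a DDX4-like transcript (SMED30031463; 4.23), a helicase of the Vasa family, followed by a second DDX4-like transcript (SMED30022978; 3.14) and TDRD7 (SMED30034335; 3.00), a Tudor-domain protein of piRNA granules. The smallest were PIWI2 and a TDRD1-like transcript (SMED30016009; 2.35).

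Both Piwi relatives lay below smedwi-1 in X1 and above it in Xins. PIWI2 (SMED30014446, Piwi-like protein 2 of this species) measured 1068, 1129, 911 and 948 RPKM in X1 replicates 1 to 4, against 205, 145, 267 and 199 RPKM in Xins replicates 1 to 4. On the log2 scale the difference was 2.34 ± 0.18 (SE, adjusted p = 1.72e-07, limma). The third Piwi transcript (SMED30001362, nearest to chicken PIWL1) measured 595, 566, 616 and 462 RPKM in X1, against 71.2, 91.4, 102 and 124 RPKM in Xins. The log2 difference was 2.53 ± 0.17 (adjusted p = 6.6e-08, limma).

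As a ratio within each library, smedwi-1 over PIWI2 was 2.07, 2.00, 2.22 and 2.03 in X1 replicates 1 to 4, against 0.187, 0.274, 0.325 and 0.239 in Xins. Smedwi-1 over PIWL1 was 3.71, 4.00, 3.28 and 4.17 in X1, against 0.538, 0.435, 0.854 and 0.383 in Xins. Neither ratio overlapped between fractions. No test is given, since smedwi-1 was picked for its own difference.

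The 14 transcripts of helicase loading and activation were all higher in X1, with a median log2 difference of 4.02 and median residual shares of 1.37%, 2.44%, 3.73% and 2.66% in Xins replicates 1 to 4. These were the lowest shares of the 7 lists and the nearest to those of the 4 transcripts. Several of the 14, such as CDC6 (0.542 RPKM) and MCM8 (0.377 RPKM), averaged under 1 RPKM in Xins. They were tested only because of their level in X1. The largest differences were those of MCM4 (5.39), MCM3 (5.33) and MCM5 (5.24), subunits of the same helicase as MCM7. The smallest were those of CDC45 (3.78), which joins the helicase when it is activated, and of a CDT1-like transcript (SMED30014686; 3.29), which resembles the loader of the helicase and was the only one of this list to come from transcripts raised by RNAi. This order holds on the log2(RPKM + 1) scale, which lowers the differences of low transcripts: by mean residual share MCM6 kept the most (6.67%), against 5.15% for this CDT1-like transcript and 3.54% for CDC45. MCM3 (1.75%) and MCM4 (1.81%) kept the least by that share too. MCM5 (2.22%) kept more on average than another CDT1-like transcript (SMED30018579, 1.82%), ORC3 (1.83%), MCM2 (2.02%) and MCM8 (2.04%). The order of these low shares lies within their spread. Over the Xins libraries MCM5 ran from 0.867% to 3.67% and ORC3 from 0.735% to 3.31%. This CDT1-like transcript, ORC3 and MCM8 each had only 9 reads in their lowest library.

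Of the 6 helicase subunits, 5 moved as a set. In X1, MCM2 (SMED30006979) averaged 88.5 ± 9.22 RPKM, MCM3 (SMED30026560) 132 ± 20.4, MCM4 (SMED30023821) 148 ± 13.3, MCM5 (SMED30032563) 160 ± 10.9 and MCM7 149 ± 24.1 (SD, n = 4). In Xins the same 5 averaged 1.79 ± 0.842, 2.32 ± 0.517, 2.68 ± 1.14, 3.55 ± 1.85 and 2.48 ± 0.723 RPKM. Their mean residual shares were 1.67% to 2.22%. MCM7 over the mean of MCM2 to MCM5 was 1.02, 1.07, 1.25 and 1.14 in X1 replicates 1 to 4, against 1.19, 1.00, 0.814 and 1.01 in Xins, so that the fractions overlapped.

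MCM6 was the exception. MCM6 (SMED30033600) measured 185, 212, 238 and 202 RPKM in X1 replicates 1 to 4, against 11, 13.4, 13 and 18.5 RPKM in Xins. On the log2 scale the difference was 3.83 ± 0.16 (SE, adjusted p = 1.46e-09, limma). Its residual share was 5.23%, 6.40%, 6.21% and 8.85%, above that of each other subunit in every Xins library. MCM6 over the mean of MCM2 to MCM5 was 1.5, 1.60, 1.62 and 1.60 in X1, against 9.20, 4.99, 3.52 and 6.66 in Xins. This contrast of MCM6 with its partners was seen in the data and not tested.

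The 14 replication fork transcripts were likewise all higher in X1 (median log2 difference 3.67), with median residual shares of 3.95%, 5.25%, 4.74% and 5.83% in Xins replicates 1 to 4. The largest differences were those of the 2 primase subunits that start new DNA strands, PRI1 (5.01) and PRI2 (4.66), and of WDHD1 (SMED30018395; 4.70), which ties the helicase to polymerase alpha. By mean residual share the low transcripts DPOD1 (1.79%) and CLSPN (1.86%) lay below PRI1 (2.09%), WDHD1 (2.31%) and PRI2 (2.68%). DPOD1 is the catalytic subunit of polymerase delta and CLSPN the checkpoint adaptor claspin. DPOD1, CLSPN and PRI1 had only 12, 12 and 8 reads in their lowest library. The ranges of all these shares over the Xins libraries overlapped, so their order is uncertain. The smallest log2 differences were those of FEN1 (2.73), the flap nuclease that works with PCNA on lagging strands, and of a second WDHD1-like transcript (SMED30026014; 2.93). By mean residual share FEN1 also kept the most (14.7%), but RFC5 (12.4%) and RFA2 (9.34%) kept more than this WDHD1-like transcript (8.91%). FEN1 averaged 127 ± 8.32 RPKM in X1 and 18.6 ± 5.31 RPKM in Xins (SD, n = 4 each).

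The 5 transcripts of deoxynucleotide supply were all higher in X1, with a median log2 difference of 4.03. DUT, which breaks down dUTP, led (4.68), with 370 ± 60.8 RPKM in X1 and 14.4 ± 6.77 RPKM in Xins (SD, n = 4 each). The large subunit of ribonucleotide reductase, RIR1, followed (4.48), and then the small subunits RIR2 (4.03) and RIR2B (3.49). DCTD, a deaminase on the path to dTMP, was at 3.6. Within Xins, all 5 were highest in replicate 3, as were 43 of the 80 pathway transcripts (53.8%). Only 4 of 14 replication fork and 2 of 9 piRNA transcripts were. The share was 26.9% over all transcripts tested and 43.7% over all those higher in X1.

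Mitotic transcripts behaved alike: all 21 passed the threshold toward X1 (median log2 difference 3.93). The cyclin-dependent kinase CDK1 (SMED30032688; 5.28), CCNB2, its cyclin partner (5.0), and its small subunit CKS2 (4.79) had the largest differences. SMC4, a condensin subunit (1.95), and MPIP, a phosphatase of the CDC25 family (0.80), had the smallest. MPIP averaged 45.2 ± 6.78 RPKM in X1 and 25.7 ± 4.8 RPKM in Xins (SD, n = 4 each; limma adjusted p = 0.000688), a difference of less than 2-fold.

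All 6 transcripts of histone chaperones and processing were higher in X1 (median log2 difference 3.36). The largest were CAF1, a histone-binding protein (4.83), SLBP1, which binds the hairpin at the end of replication-dependent histone messages (3.86), and SSRP1, a subunit of the FACT complex (3.45). The smallest were the 2 RBBP4-like transcripts, at 3.13 (SMED30022238) and 1.65 (SMED30028689).

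Core histones were the one list that was divided. Of 11 transcripts, 8 were higher in X1, 1 was higher in Xins and 2 did not pass the threshold, with a median log2 difference of 2.39. The 3 that came from transcripts lowered by p53 RNAi, as H2A.J did, were all H2A histones, high in X1 and steady there, with the highest X1 library 1.44 to 1.47 times the lowest.

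H2A.Z (SMED30030543), a variant found at promoters, came closest to H2A.J. It measured 774, 1055, 895 and 1132 RPKM in X1 replicates 1 to 4, against 15.7, 25.8, 44.8 and 19.1 RPKM in Xins. The log2 difference was 5.24 ± 0.27 (SE, adjusted p = 5.63e-09, limma). H2A.J over H2A.Z was 1.09, 1.12, 1.13 and 1.13 in X1, against 0.867, 1.26, 0.763 and 1.05 in Xins. The 2 histones therefore kept nearly the same ratio across X1 and straddled it in Xins.

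The other 2 steady H2A transcripts kept more in Xins. H2AV (SMED30017222, nearest to the fly variant H2A.v) averaged 1774 ± 293 RPKM in X1 and 186 ± 68.4 RPKM in Xins (SD, n = 4 each), a log2 difference of 3.30. H2A4 (SMED30013212, nearest to an H2A of the alga Volvox) was the most abundant histone transcript of the lists, with 2446 ± 368 RPKM in X1 and 465 ± 48.5 RPKM in Xins (SD, n = 4 each), a log2 difference of 2.39. H2A.J over H2A4 was 0.423, 0.5, 0.392 and 0.449 in X1, against 0.0334, 0.0670, 0.0657 and 0.0448 in Xins, and did not overlap. H2A.J had itself been picked for a large difference, so these contrasts with it carry no test.

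The 8 core histones that came from transcripts raised by chd4 RNAi varied widely among X1 libraries. Their highest X1 library was 2.25 to 19.0 times the lowest, and 5 of the 8 were higher in X1. X1 replicate 4 was the highest X1 library for 8 of 8, and X1 replicate 1 was the lowest for 7 of 8. H2A (SMED30016975, nearest to fly H2A) measured 2.87, 18.2, 20.3 and 54.5 RPKM in X1, against 1.82, 1.91, 2.20 and 2.33 RPKM in Xins. On the log2 scale the difference was 2.49 (adjusted p = 0.00197, limma). H2A2C (SMED30011413) measured 3.33, 19.3, 26.4 and 53.5 RPKM in X1, against 4.73, 6.0, 6.39 and 1.72 RPKM in Xins. The log2 difference was 1.84 (adjusted p = 0.0163, limma), and the fractions overlapped. The library size used in the deposited values was 1.02, 0.918, 0.911 and 0.823 times the reads in X1 replicates 1 to 4, and short transcripts were highest in X1 replicate 4 as given above; their part in this spread was not tested.

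H2A1 (SMED30015694) was the one pathway transcript higher in Xins. It measured 4.05, 12.7, 22.1 and 31.4 RPKM in X1, against 32.7, 38.0, 37.8 and 34.9 RPKM in Xins. On the log2 scale the difference was -1.28 ± 0.44 (SE, adjusted p = 0.0174, limma). The fractions did not overlap, but X1 replicate 4 lay just below the lowest Xins library. An H2B (SMED30011775) measured 7.98, 29.6, 52.8 and 132 RPKM in X1 against 12.1, 14.9, 21.6 and 15.6 RPKM in Xins, and did not pass (log2 difference 1.16, limma adjusted p = 0.0977). An H4 (SMED30025482) measured 15.4, 60.2, 92.9 and 195 RPKM in X1 against 35.3, 36.8, 44.8 and 30.4 RPKM in Xins, and did not pass either (0.81, limma adjusted p = 0.202).

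The calls of 3 of these histones turned on single libraries. Without X1 replicate 1, the H2B (log2 difference 1.85, limma adjusted p = 0.00122) and the H4 (1.47, limma adjusted p = 0.00127) were both higher in X1. Without Xins replicate 4, H2A2C no longer passed (1.51, limma adjusted p = 0.0555). With each library left out in turn, the difference ran from -1.65 to -0.76 for H2A1, the smallest in size being without X1 replicate 1, and from 1.93 to 3.21 for the H2A SMED30016975. The largest difference in this group was that of another H2B (SMED30021461; 2.96), and the smallest that passed, besides H2A2C, was that of another H4 (SMED30033466; 1.94). Histone genes occur in near-identical copies, and reads could have been divided among them at the counting step.

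**Figure D5:**
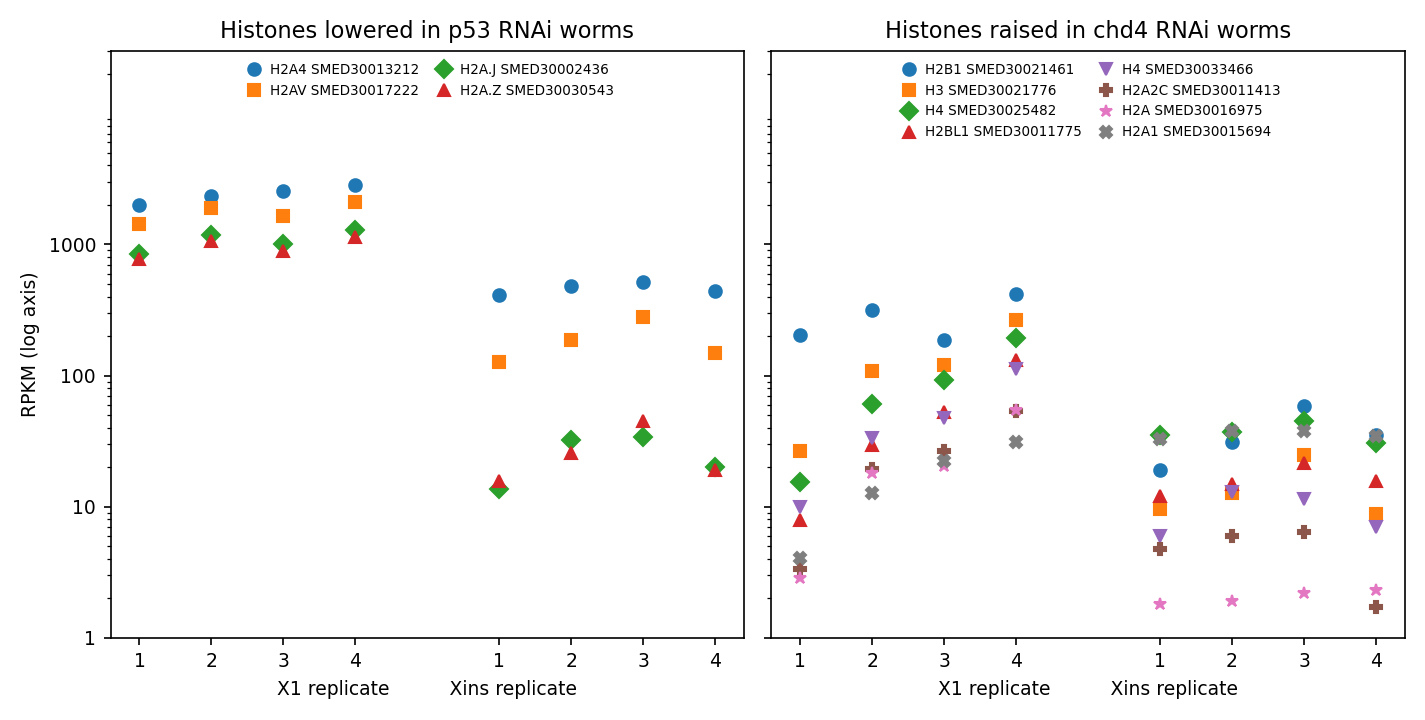
RPKM on a log axis of the core histones in X1 (left of each panel) and Xins (right), split by whether the transcript came from those lowered by p53 RNAi (including H2A.J) or raised by chd4 RNAi in whole worms; points are libraries. The left group changes by 1.44 to 1.53 times between X1 libraries, and the right group by 2.25 to 19.0 times.

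The transcripts of most similar profile were sought by the root mean square (RMS) difference of log2(RPKM + 1) over the 8 libraries, after each profile's mean was removed. This is a description over 8 values that share the same libraries. Nearest to PCNA were H2A.Z (RMS 0.0787), CCNB2 (0.110) and an ARMC1-like transcript (SMED30028549; 0.124). Nearest to MCM7 were its partners MCM3 (0.103) and MCM4 (0.150), and then an importin alpha-1-like transcript (SMED30012458; 0.203), an adaptor of nuclear import.

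Nearest to smedwi-1 were a lamin-C-like transcript (SMED30010297; 0.153), the same importin (0.163) and an unnamed transcript (SMED30002872; 0.228). The lamin, a protein of the nuclear envelope, averaged 328 ± 33.7 RPKM in X1 and 7.10 ± 3.09 RPKM in Xins (SD, n = 4 each), and was highest in X1 replicate 1 and in Xins replicate 3. No Piwi relative was among the nearest 3, but the choice of smedwi-1 by its difference all but fixed this. The log2 differences between fractions were 2.34 for PIWI2 and 2.53 for PIWL1, against 5.36 for smedwi-1. Nearest to H2A.J were a thioredoxin peroxidase-like transcript (SMED30030295; 0.197), which averaged 1255 ± 225 RPKM in X1 and 31.9 ± 16.8 RPKM in Xins (SD, n = 4 each), then MCM5 (0.207) and H2A.Z (0.215). Among the 4 themselves the closest pair was smedwi-1 and PCNA (0.277) and the farthest was PCNA and MCM7 (0.394). Each of the 4 had a closer neighbour outside the group. Nothing is read from this, since the neighbours were sought among all 15563 transcripts tested.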

How the data were processed

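RNA from 100 ng of sorted-cell RNA per library was sequenced after Illumina TruSeq preparation from polyadenylated RNA, so messages without a poly(A) tail, as replication-dependent histone messages are in most animals, may be under-represented. The authors deposited RPKM values for 17882 transcripts. The submitters' processing notes name CASAVA 1.8.2, Bowtie and edgeR; no filter, transcript set or aligner setting is named for sorted cells (not given in the sources used here). Multiplied by 1 length per row and 1 size per library, 100% of rows were whole reads within 0.001 of a read in all 8 libraries (0 of 500 rows jittered at random were), 14323705 to 15523242 reads per library. The transcript lengths given here are those recovered lengths and not annotated ones. For rows whose reads share a divisor, the reads and the length are lower bounds.

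Values were tested as log2(RPKM + 1) with limma 3.58.1 (R 4.3.3; mean-variance trend, two-sided, Benjamini-Hochberg adjustment, threshold 0.05) on 15563 transcripts with a mean of at least 1 RPKM (2319 left out); all 4 transcripts and all 80 pathway transcripts passed this filter. The mean is taken over both fractions, so some pathway transcripts passed only through X1. MCM8 averaged 0.377 RPKM and TIM 0.226 RPKM in Xins, for example. With no minimum, 77 of the 80 were higher in X1 as well. The test was tested on simulated data first. Other steps used Python 3.11.15, numpy 2.4.6, pandas 2.3.3 and scipy 1.17.1, and plots matplotlib 3.10.9. The 4 transcripts, the lists and the tests were chosen with earlier results of these data known. Named are the 4 transcripts, and from each list those not higher in X1, the 3 largest and 2 smallest differences among the rest, Piwi, MCM2 to MCM6 and H2A relatives, and the 3 nearest profiles. A few more are named where the order by residual share differed. Replicate numbers were checked for pairing: same-numbered libraries deviated from their fraction means with correlations of 0.27, -0.19, -0.12 and -0.02. Libraries of unlike numbers were not compared, so these values cannot tell whether the numbers pair libraries. The main fit used no pairing. Alternatives tried were other pseudocounts, minimums and scalings, no trend, a replicate block, limma-voom on recovered reads, a 2-fold minimum and leaving out each library; library sizes from summed reads and length-class centring were added after the data were seen. No sequence or coordinate is given, since no genome or transcript sequence was used here.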

Additional observations from a re-analysis of the deposited data

Results flagged for a closer look

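Among 106 groups of 4 libraries examined (the 4 transcripts, their ratios and the named pathway transcripts), 4 had a single library far from the other 3, where chance alone gives about 1 in 20, or 5.3. MCM2 was low in Xins replicate 1 (0.538 RPKM) and MCM3 high in X1 replicate 3 (163 RPKM). In these libraries MCM7 was also lowest and highest of its fraction. Xins replicate 1 was, however, the lowest Xins library for 47 of the 80 pathway transcripts. A WDHD1-like transcript (SMED30026014) was high in Xins replicate 4 (2.5 RPKM), and DCTD was low in X1 replicate 1 (112 RPKM). No level or ratio of smedwi-1, PCNA, MCM7 or H2A.J had a library so far from the rest.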

How the results depend on the processing

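The residual shares of the 4 transcripts moved by less than the spread between libraries under every scaling and with each library left out; the leave-one-out means ran from 1.99% to 2.76% for smedwi-1, 2.23% to 3.40% for PCNA, 1.55% to 1.91% for MCM7 and 2.05% to 2.68% for H2A.J. Quantile normalization gave smedwi-1 1813 RPKM in X1 and ratios of 1.40 for H2A.J over PCNA in X1, 31.2 for smedwi-1 over MCM7 in Xins and 13.8 for H2A.J over MCM7 in Xins; the cause was not tested. Scaling moved the median log2 difference of all transcripts to 0.22 (quantile), -0.27 (common sum) and -0.32 (summed reads), and the share of calls that were higher in X1 to 56.0%, 41.0% and 39.5%, against 45.9%. Pathway transcripts higher in X1 numbered 76 to 79 of the 80 tested under every alternative but a 5 RPKM minimum, which tested 79 and called 76. That minimum left 10044 transcripts in the test. Calls toward Xins fell from 6492 to 3708, and calls toward X1 fell less, from 5519 to 4380. X1 then held 54.2% of the calls, and the median log2 difference was 0.16. Why the balance moved was not tested. A 2-fold minimum left 3423 transcripts higher in X1. As a replicate block, the numbers gave 11911 calls against 12011 and 78 pathway transcripts higher in X1, adding the H2B SMED30011775 (limma adjusted p = 0.0355). Whether the numbers pair libraries is not known. The adjusted p of H2A1 ran from 0.0013 to 0.0424 over the alternatives, and its log2 difference from -1.65 to -0.76 over libraries left out. Of the 12 nearest profiles, 8 remained with a pseudocount of 0.1 and 12 with median-ratio rescaling. MCM7 in Xins rested on 54 to 109 reads per library, the fewest of the 4 transcripts, and its level varied between Xins libraries with a CV of 29.1%.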
